A study of Mus musculus with 12 samples.

Results

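Retinoid metabolism in mouse liver was described through 8 genes that carry vitamin A out of the liver or convert its forms into each other. They were Rbp4, Retsat, Dhrs4, Dhrs3, Rdh11, Rdh16, Aldh1a1 and Cyp26a1, and they were the rows of the processed gene table whose symbol equalled one of these names, 8 of 41128 genes. The genes had been proposed with the difference between conditions within each sex in view, so for these 8 genes that difference is given as a description and without a test.

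The study asked how liver gene expression differs between mice that live without microbes and littermates that acquire them after weaning. All 12 mice were C57BL/6, were kept in sterile isolators up to weaning at day 21, and were sacrificed at 6 weeks of age. The 6 germ-free (GF) mice stayed in the isolators, and the 6 conventionalized (CV) mice lived for 3 weeks on dirty bedding taken from the animal facility, whose microbes the labels do not list. Each condition held 3 mice labelled male and 3 labelled female, with 1 library of polyadenylated liver RNA per mouse.

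The liver takes up dietary vitamin A, stores it as retinyl esters mostly in stellate cells, and releases it as retinol bound to the carrier RBP4. Within cells, dehydrogenases and reductases interconvert retinol and retinal, aldehyde dehydrogenases oxidize retinal to retinoic acid, and CYP26 enzymes break the acid down. Retinoic acid acts through nuclear receptors (RAR, paired with RXR) that bind repeated hexamers in DNA, and the gene for CYP26A1 is a classical target of these receptors.

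Values are normalized reads, that is, the reads counted for a gene divided by the size factor of its library. Reads per library numbered 5993619 to 10975691 in GF and 8890529 to 15290835 in CV mice, and fewer cells of a type and less RNA per cell cannot be told apart in such bulk samples. The mitochondrial ribosomal RNA genes held 9.36 to 16.4% of the reads in GF libraries and 1.39 to 6.32% in CV libraries. With a few other abundant loci, 7 in all, they held 41.8 to 69.4% in GF and 5.39 to 21.9% in CV libraries. In GF females this share was 58.2 to 69.4%. Reads outside these loci numbered 1834565 to 5303292 in GF and 6943462 to 14411498 in CV libraries, so this depth cannot be told apart from the condition. The library labelled CV male 3 went against its label, with 2382 normalized reads of Xist, the RNA of the inactive X chromosome, and 0 reads of Y-linked genes, whereas the other libraries labelled male had 4.68 to 21.3 and at least 796. It was kept under its label, and values without it are given beside the values of the 8 genes in males, the sex differences and the counts.

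The promoter sequences of the pair of genes that give the list its name and of the retinoic acid target Cyp26a1 are shown here, from RefSeq on GRCm38.p6, all on the plus strand and ending at the base before the annotated gene start. The Cyp26a1 stretch is chr19:37697558-37697797, that of Retsat is chr6:72598352-72598474 and that of Dhrs4 is chr14:55478508-55478757. Capitals mark matches to the hexamer AGGTCA or to a variant spelled AGTTCA, spelled GGGTCA or spelled GGTTCA, and those shown lie on the minus strand, so that here they read as the reverse complement.
Cyp26a1: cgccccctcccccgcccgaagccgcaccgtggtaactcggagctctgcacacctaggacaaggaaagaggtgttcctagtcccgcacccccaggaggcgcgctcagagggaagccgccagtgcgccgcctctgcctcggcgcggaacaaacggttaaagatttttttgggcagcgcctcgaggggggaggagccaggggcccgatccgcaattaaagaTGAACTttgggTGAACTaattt
Retsat: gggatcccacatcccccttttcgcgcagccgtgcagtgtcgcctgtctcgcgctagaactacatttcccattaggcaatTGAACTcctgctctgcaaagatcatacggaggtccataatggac
Dhrs4: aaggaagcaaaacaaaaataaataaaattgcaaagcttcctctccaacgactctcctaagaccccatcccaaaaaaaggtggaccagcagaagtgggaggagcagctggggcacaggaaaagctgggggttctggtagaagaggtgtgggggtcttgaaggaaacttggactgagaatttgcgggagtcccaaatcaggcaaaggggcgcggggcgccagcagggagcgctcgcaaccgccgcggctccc
Both strands of the windows from 250 bases before to 50 bases after the RefSeq start were searched for direct repeats of these hexamers spaced by 1, 2 or 5 bases. Among the 8 genes, only Cyp26a1 held such a repeat, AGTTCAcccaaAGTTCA with a spacing of 5 bases, on the minus strand at chr19:37697776-37697792. A repeat with this spacing was found in 32 of 32851 promoter windows of all genes (0.0974%), against 73 (0.222%) for a spacing of 1 and 88 (0.268%) for a spacing of 2. The Retsat stretch holds a lone hexamer, as do windows of Rbp4, Rdh11, Rdh16 and Aldh1a1, and 43.7% of all windows held at least 1. No match was found in the Dhrs4 stretch. A match describes the letters and does not show that a receptor binds there.

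Rbp4, which encodes the plasma carrier of retinol, lies at chr19:38116629-38125281 on the minus strand (GRCm38, GENCODE). In males its normalized reads were 10966, 20738 and 16074 in GF and 38729, 39925 and 41595 in CV libraries. In females they were 5763, 9533 and 4884 in GF and 31204, 40272 and 42928 in CV libraries. Every CV library lay above every GF library, and the GF females lay below the GF males. The CV libraries were close to each other, with means of 40083 ± 1439 (SD, n = 3) in males and 38135 ± 6147 (SD, n = 3) in females. On the log2(value + 1) scale used for all differences here, CV minus GF was 1.38 ± 0.38 (SE) in males, a 2.60-fold difference, and 2.55 ± 0.38 in females, a 5.86-fold difference. Without the library labelled CV male 3 the male value was 1.35.

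Retsat encodes retinol saturase, which adds hydrogen to retinol to form dihydroretinol, and lies at chr6:72598475-72608425 on the plus strand. In males its normalized reads were 504, 764 and 547 in GF and 5062, 1698 and 2059.6 in CV libraries. In females they were 214, 309 and 167 in GF and 6012, 3246 and 5510.4 in CV libraries. The conditions did not overlap in either sex, and the lowest CV library held 1698 against 764 in the highest GF library. CV minus GF was 2.13 ± 0.38 on the log2 scale in males, a 4.37-fold difference that ranked 50 from the top among the 11782 genes tested. In females it was 4.41 ± 0.38, a 21.3-fold difference that ranked 3. The spread within CV males was wide, with a mean of 2940.1 ± 1847 (SD, n = 3), because CV male 1 held 5062 and the other two libraries held 1698 and 2059.6. Without CV male 3 the male difference was 2.30, and over all fits that left out 1 library it was 1.65 to 2.44 in males and 4.20 to 4.69 in females. A predicted gene, Gm45053, overlaps Retsat on the opposite strand over 650 exon bases, and reads of the pair cannot be told apart here, since the strand setting of the counting is not given in the sources used here.

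Dhrs4, a peroxisomal reductase that returns retinal to retinol, lies at chr14:55478758-55490340 on the plus strand. In males its normalized reads were 229, 309 and 224 in GF and 1194, 743 and 776 in CV libraries. In females they were 168, 215 and 169 in GF and 1044, 1053 and 1151 in CV libraries. The conditions did not overlap, and within CV females the libraries differed little, with a mean of 1083 ± 59.4 (SD, n = 3). CV minus GF was 1.81 ± 0.24 in males (3.51-fold, rank 107) and 2.56 ± 0.24 in females (5.90-fold, rank 182), on the log2 scale. The male value was 1.90 without CV male 3.

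**Figure D1:**
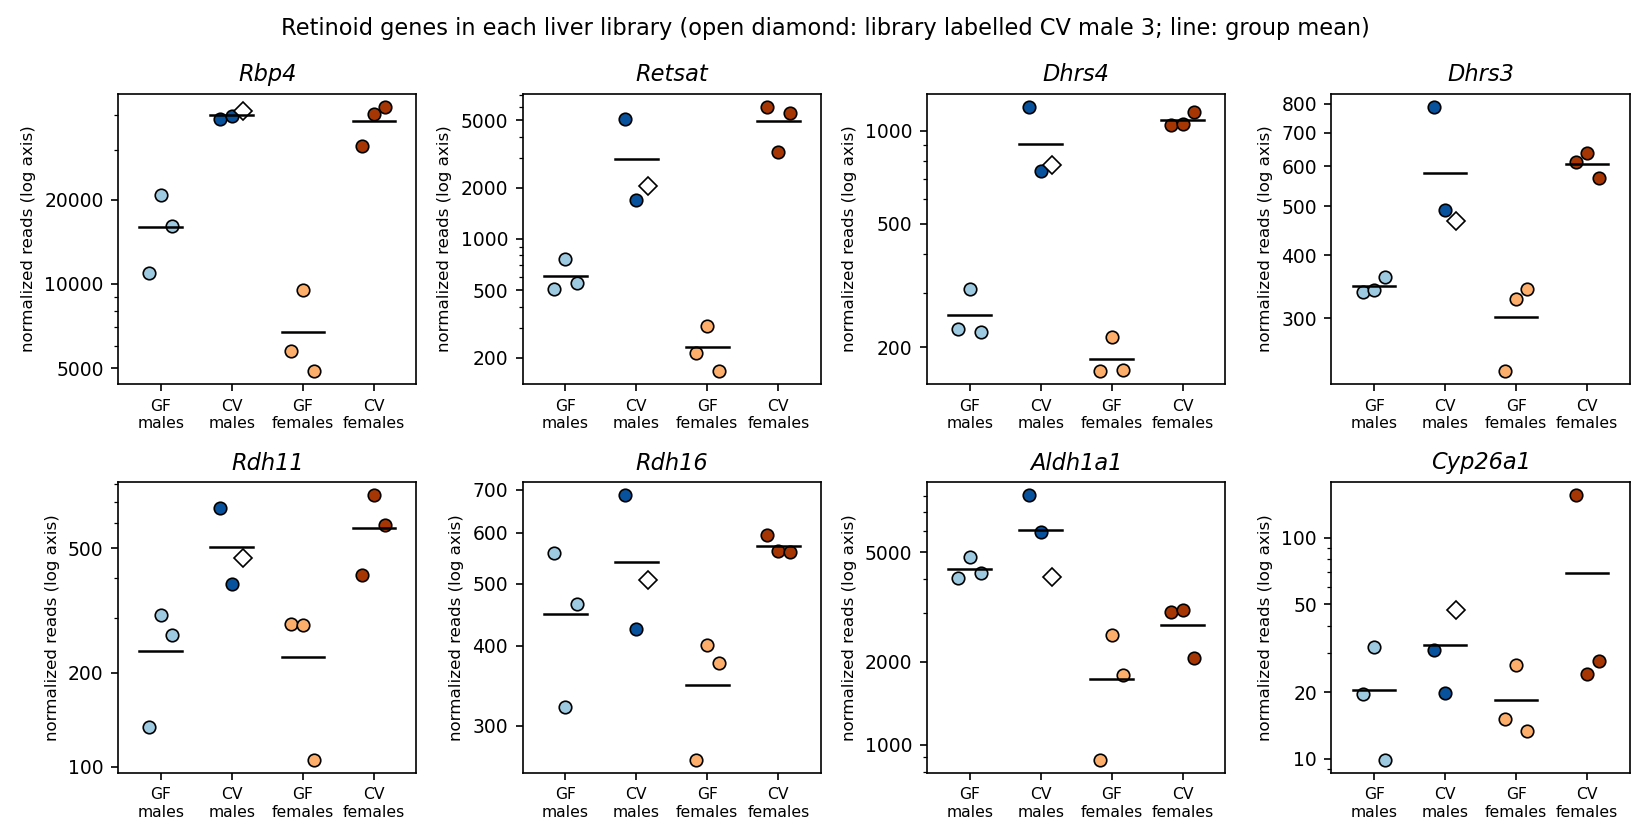
Normalized reads (log axis, a separate range in each panel) of the 8 retinoid genes in the 12 liver libraries, by condition and labelled sex. Points are single mice, lines are group means and the open diamond is the library labelled CV male 3. In Retsat and Dhrs4 all CV points lie above all GF points (lowest CV 1698 and 743, highest GF 764 and 309), whereas in Aldh1a1 the males lie above the females of the same condition.

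Dhrs3 and Rdh11 encode microsomal enzymes that reduce retinal to retinol. Dhrs3 (chr4:144892827-144928209, plus strand) had 338, 341 and 361 normalized reads in GF males and 788, 492 and 468 in CV males. In females it had 235, 327 and 343 in GF and 614, 637 and 570.2 in CV libraries. No GF library reached the lowest CV library of its sex, yet the separation was narrower than for Dhrs4, and CV minus GF was 0.71 ± 0.24 in males and 1.02 ± 0.24 in females on the log2 scale. The male value was 0.84 without CV male 3 and 0.47 without CV male 1. Rdh11 (chr12:79174337-79192293, minus strand) had 134, 305 and 264 normalized reads in GF males and 669.8, 384 and 464 in CV males. In females it had 285, 285 and 105 in GF and 411, 738 and 594 in CV libraries. The conditions again did not overlap in either sex, but the libraries of a group differed by more than in Dhrs4, with 225 ± 104 (SD, n = 3) in GF females. CV minus GF of Rdh11 was 1.15 ± 0.39 in males (1.19 without CV male 3) and 1.46 ± 0.39 in females on the log2 scale.

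Rdh16, a microsomal dehydrogenase that oxidizes retinol to retinal, lies at chr10:127801152-127846565 on the plus strand. In males it had 558, 321 and 465 normalized reads in GF and 687, 425 and 507 in CV libraries, which overlapped. In females it had 266, 402 and 376 in GF and 596, 562 and 559.9 in CV libraries, and every CV female lay above every GF female. CV minus GF was 0.28 ± 0.26 in males (0.31 without CV male 3) and 0.74 ± 0.26 in females on the log2 scale. The male value rested on single libraries, at 0.0552 without GF male 2, 0.0890 without CV male 1, 0.43 without CV male 2 and 0.45 without GF male 1. Rdh16 has close paralogs beside it, and the pseudogene Rdh18-ps overlaps 381 of its exon bases on the same strand with 19 reads in all 12 libraries, so how reads were divided between these genes is uncertain.

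Aldh1a1, a cytosolic aldehyde dehydrogenase that forms retinoic acid from retinal, lies at chr19:20492715-20643465 on the plus strand. In males it had 4032, 4792 and 4217 normalized reads in GF and 8058, 5906 and 4055 in CV libraries. In females it had 885, 2508 and 1798 in GF and 3030.1, 3095 and 2072 in CV libraries. The conditions overlapped in both sexes. In males the overlap came from the library labelled CV male 3 (4055), and the other CV males (8058 and 5906) lay above the highest GF male (4792). Within each condition every library labelled male lay above every library labelled female. CV minus GF was 0.41 ± 0.36 in males (0.67 without CV male 3, 0.17 without CV male 1) and 0.76 ± 0.36 in females (0.34 without GF female 1) on the log2 scale. Aldh1a1 has a near-identical neighbour, Aldh1a7, so the division of reads between them is uncertain.

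Cyp26a1, which encodes the enzyme that hydroxylates retinoic acid for breakdown and whose promoter carries the repeat printed above, lies at chr19:37697798-37701536 on the plus strand. It was the lowest of the 8 genes, with 670 reads over all libraries and 7 in the lowest. In males it had 19.7, 31.9 and 9.92 normalized reads in GF and 31.2, 19.9 and 47.2 in CV libraries. In females it had 15.1, 26.6 and 13.4 in GF and 156, 24.2 and 27.7 in CV libraries. The conditions overlapped in both sexes, and CV female 1 stood above all the others. CV minus GF was 0.71 ± 0.60 in males (0.41 without CV male 3, 0.29 without GF male 3 and 1.09 without GF male 2) and 1.38 ± 0.60 in females on the log2 scale. Without CV female 1 the female value was 0.53.

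Over the 8 genes, the median of CV minus GF was 0.93 in males and 1.42 in females on the log2 scale, against 0.06 and 0.08 over all 11782 genes tested. Every CV library lay above every GF library of its sex for 5 of 8 genes in males and 6 of 8 in females, which held for 22.0% and 34.0% of all genes tested. A log2 difference above 1 was seen for 4 of 8 in males and 6 of 8 in females, against 10.8% and 24.4% of all genes. A difference above 2 was seen for 1 of 8 in males (0.552% of all genes) and for 3 of 8 in females (5.40% of all genes). Without CV male 3 the male median was 1.02, the conditions separated for 6 of 8 genes in males (26.3% of all genes), and the log2 difference passed 1 for 4 of 8 (12.5%) and 2 for 1 of 8 (0.671%). These counts restate the values by which the genes had been chosen, and nothing is read from them.

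**Figure D2:**
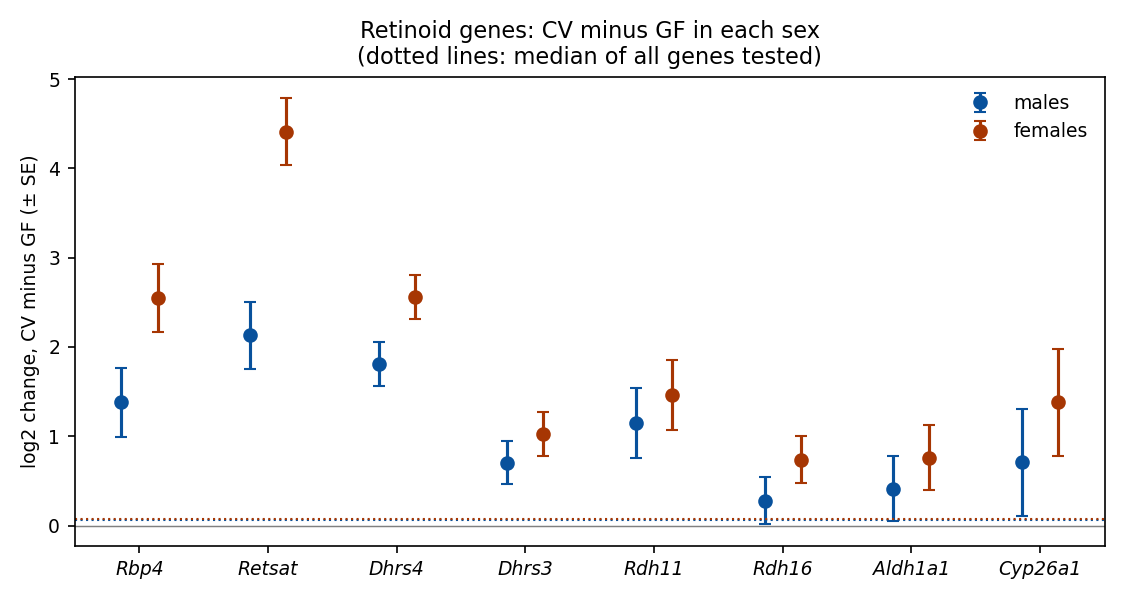
Log2 difference between CV and GF livers for the 8 retinoid genes in males (blue) and females (orange-brown). Points are fitted differences with their SE, from 3 libraries per group, and dotted lines are the medians of all 11782 genes (0.06 and 0.08). All 8 points lie above 0 in both sexes, from 0.28 (Rdh16, males) to 4.41 (Retsat, females).

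The female difference was the larger for all 8 genes, and nothing is read from this count. Differences were also larger in females over the whole table. Limma called 3512 of all genes higher in CV females and 1660 in CV males. A log2 difference above 1 was seen for 24.4% and 10.8% of all genes. The male minus female difference of the condition effect, on the log2 scale, was -2.28 ± 0.53 (SE) for Retsat, -1.17 ± 0.54 for Rbp4 and -0.75 ± 0.34 for Dhrs4, and -0.67 to -0.31 for the other genes. Without CV male 3 it was -2.11 for Retsat, -1.20 for Rbp4 and -0.66 for Dhrs4, and -0.97 (Cyp26a1) to -0.0908 (Aldh1a1) for the other genes. With all libraries, the median of this interaction of condition and sex was -0.06 over all genes and -0.28 over 51 other retinoid genes. No gene of the 11782 passed an adjusted p of 0.05 for this interaction (0%) in limma, 1382 had an unadjusted p under 0.05, edgeR with TMM factors called 0 and DESeq2 called 19. Limma called 291 without CV male 1, 4 without CV male 3 and 11 with all reads, and edgeR without a filter called 105. The value of the 8 genes was not tested because it follows from the contrasts that chose them. Female groups also differed more in composition, with mitochondrial ribosomal RNA at 13.4 to 16.4% of the reads in GF and 1.51 to 1.81% in CV females, against 9.36 to 11.5% and 1.39 to 6.32% in males. Its part in these differences was not tested beyond the adjusted values that follow.

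With the mitochondrial ribosomal RNA share as a covariate, CV minus GF of Retsat was 1.18 in males and 2.20 in females on the log2 scale. Dhrs4 gave 1.37 and 1.54, and Rbp4 gave 1.60 and 3.06. Under the same covariate Dhrs3 went to 0.05 in males and -0.50 in females, and Aldh1a1 to -0.11 and -0.47. The share differed between all GF and all CV libraries, so it and the condition cannot be told apart. The scaling of the libraries also moved the values, since scaling to all reads put the median of all genes at 0.37 in males and 0.86 in females, and scaling to hepatocyte markers put it at -0.33 and -0.93. Against these medians, the median of the 8 genes was 1.24 and 2.21 under the former and 0.54 and 0.41 under the latter.

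**Figure D3:**
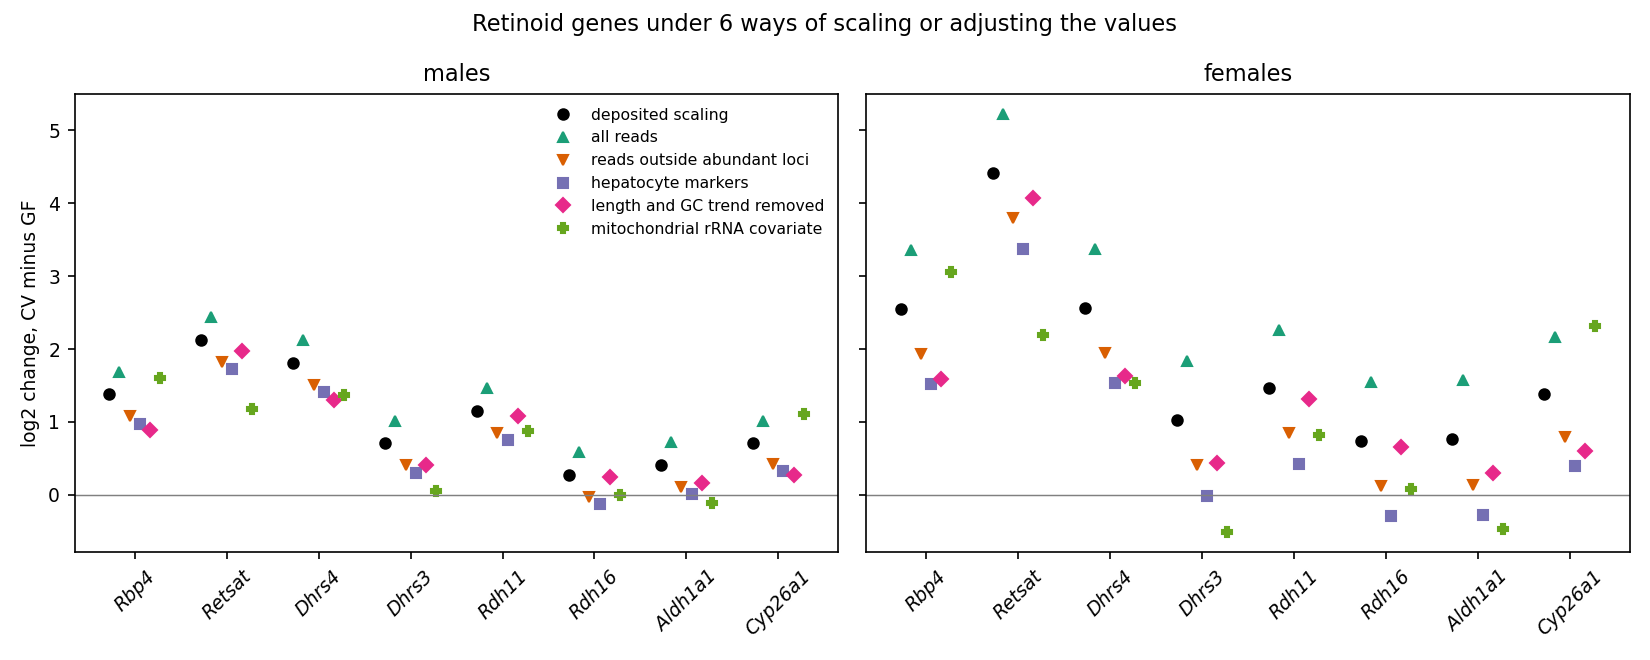
Log2 difference between CV and GF livers for the 8 retinoid genes under 6 scalings or adjustments, in males (left) and females (right). Each symbol is the fitted difference under the setting in the legend. Retsat stays between 1.18 and 2.44 in males and between 2.20 and 5.22 in females, Dhrs4 and Rbp4 also stay above 0, and Dhrs3, Rdh16 and Aldh1a1 go below 0 under some settings.

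The same genes were set against hepatocyte markers within each library, since the markers themselves differed, with 6 measured markers (Alb, Apoa1, Apob, Fgb, Cps1 and Hnf4a) summing to 94641 to 381484 normalized reads in GF and 317083 to 534000 in CV libraries. As a percentage of their geometric mean, Retsat stood at 1.45 to 3.29 in GF and 8.25 to 21.7 in CV libraries. Dhrs4 stood at 1.13 to 1.74 in GF and 3.11 to 4.02 in CV libraries, and Rbp4 at 39.0 to 90.1 and 113 to 196. For these 3 genes the conditions did not overlap on this scale either. The genes were chosen with this contrast in view, and the share of all genes was not computed on this scale. Nothing is therefore read from this separation. Dhrs3 stood at 1.36 to 3.53 in GF and 1.88 to 2.54 in CV libraries, and the ranges of Rdh11, Rdh16, Aldh1a1 and Cyp26a1 also overlapped.

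Markers of the other cells of the liver were measured for comparison. The 11 stellate cell markers, which stand for the cells that store retinyl esters, summed to 2248 to 4357 normalized reads in GF and 2711 to 4654 in CV libraries. Red blood cell markers summed to 2777 to 32885 in GF and 916 to 3159 in CV libraries, Kupffer cell markers to 744 to 1423 and 857 to 1970.3, sinusoidal endothelium to 1005 to 2539.8 and 463 to 1333, and bile duct to 453 to 1059 and 527 to 1616. Exocrine pancreas markers stayed at 0 to 3.99 and 4.68 to 11.8, and adipocyte markers, of which 1 of 5 was listed at 0 in every library, at 7.67 to 59.5 and 16.4 to 94.6. Their part in the values of the 8 genes was not tested.

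Levels of different genes were compared as normalized reads per kilobase of exon. Rbp4 was the highest in all 4 groups, with 11858 ± 3639 (SD, n = 3) in GF males and 28395 ± 4577 in CV females, and Cyp26a1 was the lowest, with 10.3 ± 5.56 and 35.0 ± 37.9. The order between them shifted most for Retsat. In GF females it stood sixth at 65.0 ± 20.4 per kilobase and overlapped with its neighbours Rdh11 (65.2 ± 30.0) and Rdh16 (55.9 ± 11.6). In CV females it stood second at 1392 ± 417, with no overlap with Rbp4 above or with Dhrs4 (617 ± 33.9) below. In CV males Aldh1a1 was second at 1217 ± 406, and its libraries overlapped with those of Retsat (831 ± 522), which in turn overlapped with Dhrs4 (516 ± 143). In GF males Aldh1a1 was second at 881 ± 80.3 and stood apart from Retsat (171 ± 39.4), which overlapped with Dhrs4 (145 ± 27.1).

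The difference between libraries labelled male and female, averaged over both conditions, is orthogonal in this balanced design to the contrasts that chose the genes, and it was tested with limma over all 11782 genes and Benjamini-Hochberg adjustment. Aldh1a1 was higher in males over both conditions, by 1.28 ± 0.25 on the log2 scale or 2.42-fold (adjusted p = 0.0147), and it was the only gene called of the 8, where 1.16% of all genes were called. In all 27 other settings the difference was 1.07 to 1.44, with adjusted p from 8.03e-05 (DESeq2) to 0.0669. The call was lost without GF male 3 (adjusted p = 0.0515), without CV female 3 (0.0669) and under scaling to hepatocyte markers (0.0507), and it held without CV male 3, at 1.40 and 0.00477. The share of mitochondrial ribosomal RNA differed between the sexes in GF livers, and with it as a covariate the difference was 1.19 (adjusted p = 0.0422). For the near copy Aldh1a7 the difference was 0.58 ± 0.33 with an adjusted p of 0.55.

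The difference between the sexes within GF or within CV livers is made of the group means by which the genes were chosen, so it is given as a description and without a test. In GF livers males stood above females by 1.45 on the log2 scale for Aldh1a1, 1.41 for Retsat, 1.26 for Rbp4 and 0.46 for Dhrs4, and for each of these 4 of 8 genes every GF male lay above every GF female. Such a separation, in either direction, was seen in 18.7% of all genes tested, and nothing is read from the count. The other genes stood at 0.07 to 0.35.

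In CV livers males stood above females by 1.10 on the log2 scale for Aldh1a1, the only 1 of 8 genes whose sexes did not overlap there (10.9% of all genes). Retsat stood at -0.87, and its libraries overlapped, since CV male 1 held 5062 normalized reads and CV female 2 held 3246. Without CV male 3 the difference was -0.70 for Retsat and 1.36 for Aldh1a1, and the sexes did not overlap for 1 of 8 genes, against 19.2% of all genes. The change of the Retsat value between the conditions is the interaction value of -2.28 given above.

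**Figure D4:**
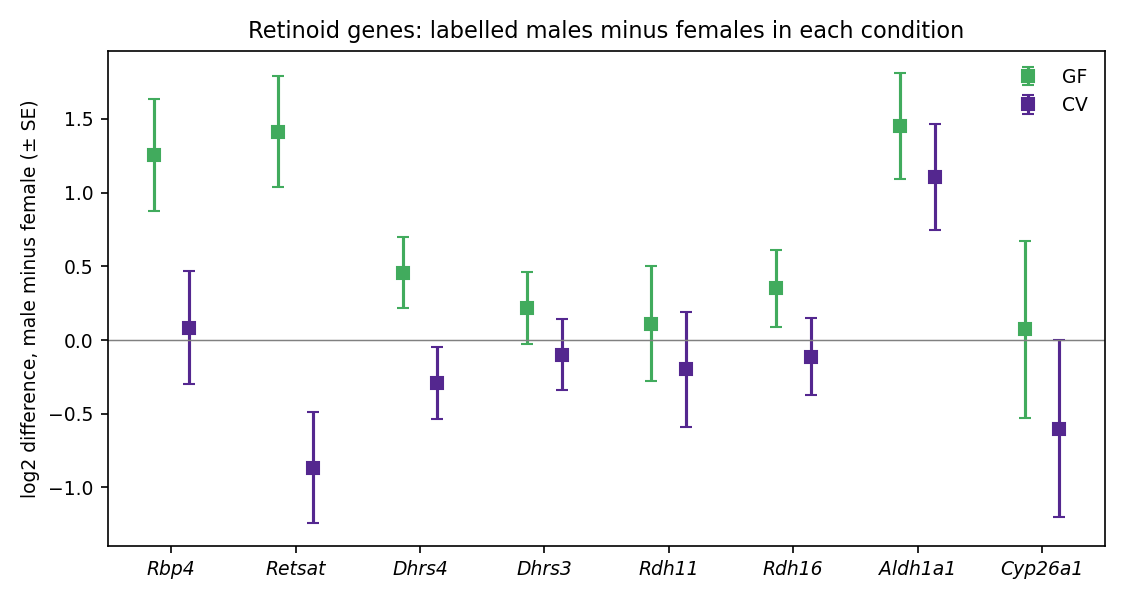
Log2 difference between libraries labelled male and female for the 8 retinoid genes in GF (green) and CV (purple) livers, with the SE of the fit (3 libraries per group). Aldh1a1 lies above 0 in both conditions (1.45 and 1.10), whereas Retsat lies at 1.41 in GF and at -0.87 in CV livers.

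Other genes of the pathway were taken from 6 lists that cover transport and storage, dehydrogenases and reductases, retinoic acid synthesis and breakdown, carotenoids, receptors and coregulators, and retinoic acid response. Of 69 genes found in the table, 51 passed the minimum mean of 10 normalized reads, and 39 of these 51 passed limma's test for CV minus GF averaged over the sexes (adjusted p under 0.05), 29 higher and 10 lower in CV livers. This is 76.5% of those tested, where 61.1% of all genes were called, 32.3% higher and 28.7% lower. By list the share called ran from 61.5% (transport and storage) to 85.7% (retinoic acid response, 7 genes tested). Their median difference was 0.75 on the log2 scale against 0.07 for all genes. The lists were chosen with earlier results of these data known, so their shares beside those of all genes are a description. In males 20 were called (15 higher, 5 lower), where 29.5% of all genes were (14.1% higher, 15.4% lower). In females 35 were called (27 higher, 8 lower), where 55.8% of all genes were (29.8% higher, 26.0% lower). Without CV male 3 the averaged test called 36 (28 higher, 8 lower) and the male test 20 (16 higher, 4 lower). The averaged split was 32 higher and 2 lower when scaled to all reads, where all genes gave 5926 and 1615. It was 16 and 15 outside the abundant loci (2145 and 4864 of all genes), and 15 and 16 with hepatocyte markers (1251 and 5523 of all genes). None passed the interaction of condition and sex in limma (smallest adjusted p 0.417), and edgeR without a filter called 2.

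Of the dehydrogenases and reductases, 12 of 16 tested rose in CV livers, 1 fell and 3 did not pass, and 10 to 12 rose under each scaling tried. Dhrs1, a short-chain dehydrogenase like Dhrs3 and Dhrs4, ranged from 131 to 218 normalized reads in GF and from 479 to 1025 in CV libraries, a log2 difference of 2.14 ± 0.18 (SE, adjusted p = 4.44e-07 by limma). Dhrs7 rose by 2.08 ± 0.23 (3.11e-06), the retinol dehydrogenase Rdh7 by 1.88 ± 0.21 (3.5e-06) and the alcohol dehydrogenase Adh5 by 1.80 ± 0.21 (4.75e-06) on the same scale. In each of these 4 genes every CV library lay above every GF library of its sex, as in 22.0% of all genes in males and 34.0% in females. The 4 were named for their small adjusted p in this contrast, so nothing is read from that separation. Adh7, an alcohol dehydrogenase known from the stomach, was the gene that fell, at -1.51 ± 0.18 (5.68e-06), from 129.8 to 184 normalized reads in GF to 39.1 to 80.9 in CV libraries. Rdh1, Rdh12, Rdh16f1, Rdh19, Dhrs9 and Sdr16c5 stayed below the minimum level.

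Of the transport and storage genes, 7 of 13 rose, 1 fell and 5 did not pass. The share called was 61.5%, near the 61.1% of all genes. In males 3 passed and in females 6, all as higher. The averaged split became 4 and 4 when libraries were scaled to reads outside the abundant loci or to hepatocyte markers. The triglyceride lipase gene Pnpla2 rose by 1.66 ± 0.19 (adjusted p = 4.16e-06 by limma), Lipc, the hepatic lipase, by 1.29 ± 0.19 (3.48e-05) and Lipa, the lysosomal acid lipase that also cleaves retinyl esters, by 1.21 ± 0.19 (4.5e-05). Fabp5, a fatty acid carrier that can also bind retinoic acid, rose by 2.06 ± 0.51 (0.00245), with 243 to 4242 normalized reads in CV libraries and an overlap of the conditions in males. Stra6, Rbp2, Rbp7, Crabp1 and Crabp2 stayed below the minimum level.

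Retinoic acid synthesis and breakdown was split, with 2 of 5 tested higher, 2 lower and 1 not passing. In males 0 of the 5 passed, and in females 3 did (2 higher, 1 lower). The 2 higher on average no longer passed under scaling to reads outside the abundant loci or to hepatocyte markers, where 3 passed as lower. The dehydrogenases Aldh1a7 (0.93 ± 0.33, adjusted p = 0.0223 by limma) and Aldh8a1 (0.77 ± 0.20, 0.00343) were higher in CV livers, and the aldehyde oxidase Aox1 (-0.50 ± 0.20, 0.0359, but a difference of 0.0546 when scaled to all reads) and the retinoic acid hydroxylase Cyp26b1 (-1.06 ± 0.36, 0.0194) were lower. Of the 12 fits that left out 1 library, the call of Aox1 was lost in 8, that of Aldh1a7 in 4 and that of Cyp26b1 in 2, and Cyp26b1 was not called with all reads (-0.55) or with the length and GC trend removed (-0.80). Aldh1a2, Aldh1a3, Cyp26c1 and Cyp2s1 stayed below the minimum level. Of the carotenoid genes, 3 of 4 rose, namely the cleavage enzymes Bco2 (1.02 ± 0.22, 0.000732) and Bco1 (0.75 ± 0.21, 0.00597) and the uptake receptor Cd36 (0.67 ± 0.20, 0.00796). None of the carotenoid genes passed when scaled to reads outside the abundant loci or to hepatocyte markers, and Cd36 stood at -0.0472 under the latter. The call of Bco1 was also lost with the length and GC trend removed (0.30). Isx stayed below the minimum level.

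Receptors and coregulators leaned the other way, with 3 of 11 higher, 6 lower and 2 not passing. In males 0 passed as higher and 4 as lower, and in females 2 and 6. The averaged lean depended on the scaling, with 4 higher and 1 lower with all reads. After a trend with transcript length and GC content was removed, 2 were higher and 2 lower. The corepressor gene Ncor1 (-0.98 ± 0.17, adjusted p = 0.000107 by limma) and the coactivator gene Ncoa2 (-0.91 ± 0.16, 0.00015) were lower in CV livers. They were named for their small adjusted p, so their lack of overlap within either sex is no separate result. Both calls were lost when scaled to all reads, at -0.42 for Ncor1 and -0.35 for Ncoa2, and after removal of the length and GC trend, at -0.0410 and -0.13. Rara, a retinoic acid receptor, was higher by 0.89 ± 0.20 (0.0011), which was lost outside the abundant loci (0.44) and with hepatocyte markers (0.18). Among retinoic acid response genes, 3 of 7 rose and 3 fell, which became 4 and 0 with all reads. In males 0 of the 7 passed, and in females 6 did (3 higher, 3 lower). None of the 7 passed the interaction of condition and sex in limma. Rarres1 (1.60 ± 0.32, 0.000463) and Tgm2 (0.90 ± 0.19, 0.000641) rose. The receptor gene Rarb (-0.92 ± 0.29, 0.011) and the corepressor gene Nrip1 (-0.75 ± 0.19, 0.00286) fell. For the repeat-bearing Cyp26a1, whose libraries overlapped between the conditions, the averaged difference was 1.05 ± 0.42 (SE). That value was not tested, because Cyp26a1 was chosen with the contrast in view, so it is not compared with these calls. Rarb (-0.38) and Nrip1 (-0.19) were not called with all reads, nor was Nrip1 with the trend removed (-0.0144) or Tgm2 with hepatocyte markers (0.18). Hoxa5 and Stra8 stayed below the minimum level. With the mitochondrial ribosomal RNA share as a covariate, 0 of the 51 genes passed in limma, as did 0 of all 11782 genes, of which 1985 had an unadjusted p under 0.05. Aldh8a1, Bco2, Cyp26b1 and Nrip1 changed sign there.

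**Figure D5:**
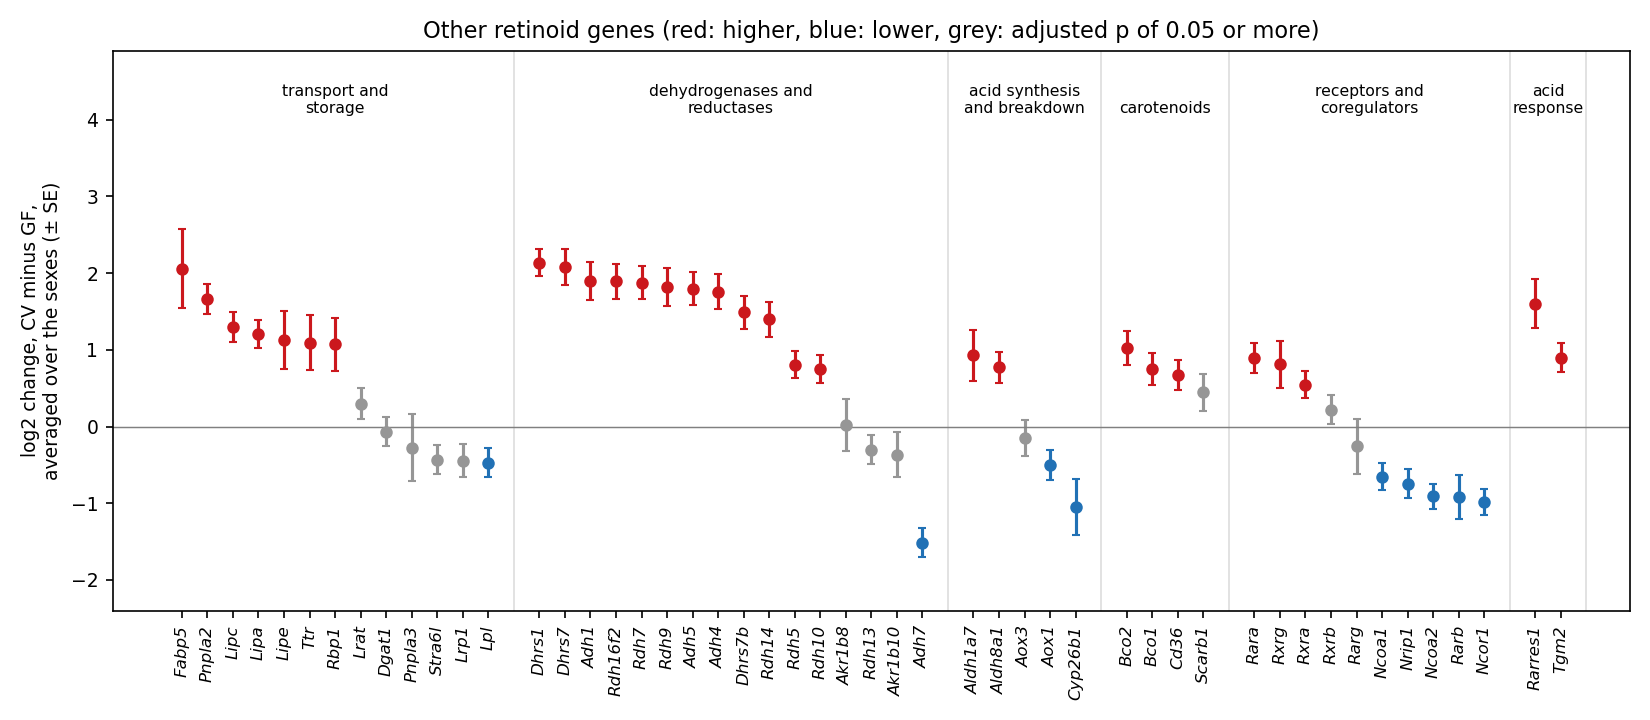
Log2 difference between CV and GF livers, averaged over the sexes, for 50 of the 51 other retinoid genes tested, grouped by role. Points are limma estimates with their SE, red and blue are adjusted p under 0.05 (29 higher, 9 lower), grey is above, and a gene in several lists is drawn once in the first. Most dehydrogenases and reductases lie above 0 (Dhrs1 2.14) with Adh7 at -1.51, and Ncor1, at -0.98, is the lowest of the receptors and coregulators drawn.

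How the lists were chosen, as given above, also limits the comparison of the sexes. Between the sexes, 3 of 51 of these other genes passed over both conditions (5.88%), where 1.16% of all genes were called. They were Rdh16f2 (-1.25 ± 0.23 male minus female on the log2 scale, adjusted p = 0.00819 by limma), a dehydrogenase of the Rdh16 family that was higher in females, and Aox3 (1.21 ± 0.23, 0.0124) and Rarres1 (1.57 ± 0.32, 0.0184), which were higher in males. They stood at -1.47, 1.40 and 1.74 without CV male 3, and all 3 passed. Over the 27 other settings Rdh16f2 passed in 27, Aox3 in 25, not without GF male 3 (0.0546) or with hepatocyte markers (0.0637), and Rarres1 in 22. The call of Rarres1 was lost without GF male 2 (0.0637), GF male 3 (0.0575), CV male 1 (0.0596) or CV female 1 (0.0693), and with the mitochondrial ribosomal RNA share as a covariate (0.0592). The same number, 3 of 51, passed in GF livers, where 1.63% of all genes were called. There 9 of 51 had an unadjusted p under 0.05 in limma (17.6%), the same share as among all genes (17.6%). In CV livers 0 of 51 passed in limma, where 0.0594% of all genes were called, and 9 of 51 had an unadjusted p under 0.05 (17.6%, against 5.10% of all genes). The calls among all genes in CV livers went from 7 to 77 without CV male 3 and to 48 without CV male 1, and 1 of 51 passed without CV male 3, namely Rdh16f2 (-1.58, adjusted p = 0.00657 by limma).

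The genes closest to Retsat and Dhrs4 across the libraries were found by the root mean square distance between profiles of log2(value + 1), each centred on its own mean, over all 12 libraries. For Retsat these included Acads (0.43), Abhd14b (0.45), Serinc2 (0.50) and Sdhd (0.50). Among the 8 genes Dhrs4 was nearest to Retsat, at 0.73 and rank 69, and Rbp4 followed at 0.86 and rank 211. For Dhrs4 the 5 nearest were Tmem9 (0.16), Ndfip1 (0.17), Echs1 (0.17), Ninj1 (0.18) and Atraid (0.18). Rbp4 was its nearest of the 8, at 0.42 and rank 424. All profiles share the same libraries and scaling, so these distances are a description.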

How the data were processed

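Liver RNA of 12 mice was sequenced as stranded poly(A) libraries (Illumina TruSeq kit, HiSeq instrument), and groups and replicate numbers came from the sample titles. The paper given for the series describes a brain experiment, and no method was taken from it. The deposited unit is a normalized signal per gene, since the authors divided the gene counts by a size factor per library. The submitters' processing notes name HTSeq 0.6.1p1, DESeq2 and GRCm38, and the aligner, annotation release and strand setting are not given in the sources used here. Multiplied by that factor, 100% of the values gave whole reads to within 0.01 reads, and it equalled the DESeq2 size factor recomputed over 12512 genes with reads in all libraries, so whole reads were recovered (5993619 to 15290835 per library). The depth speaks for counting error only, because duplicate reads of 1 molecule were not marked by molecular identifiers.

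The test was limma 3.58.1 (R 4.3.3) on log2(value + 1), over genes with a mean of at least 10 (11782 of 41128), with 1 mean per group of condition and labelled sex over all 12 libraries, a variance trend, Benjamini-Hochberg adjustment and a threshold of 0.05. This scale understates the change of low genes. P-values measure the spread between the mice of a group, of which there were 3. The 8 genes and the pathway and marker lists were chosen with earlier results of these data known. Besides the 8 genes, the text names the 4 called genes of each list with the smallest adjusted p over both sexes, list genes below the minimum, and the 5 genes nearest to Retsat and to Dhrs4. Adh7, the genes with a sex difference and Aldh1a7 beside Aldh1a1 were named after their values were seen. Of 70 listed pathway genes, 68 matched by symbol, 1 by annotation and 1 not at all. GENCODE mouse release 21 on GRCm38 listed 40254 of the identifiers (97.9%) and gave positions and exon lengths, and promoters came from RefSeq on GRCm38.p6.

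Alternatives were 25 planned settings: other pseudocounts, filters and scalings, edgeR 4.0.16 and DESeq2 1.42.0 on recovered reads, the mitochondrial ribosomal RNA share as covariate, the replicate number as a block, and each library left out. Scaling to hepatocyte markers and removal of a loess trend (span 0.3) on transcript length and GC content were added after the data were seen. The abundant loci of 1 scaling were 7 loci, comprising the mitochondrial ribosomal RNA genes, Lars2, Mir6236 and predicted genes each above 1% of all reads. Deviations from group means of same-numbered CV males and females correlated at 0.19, 0.12 and 0.17 across genes. In GF livers they correlated at 0.06, 0.40 and 0.07, and GF and CV mice of the same number at -0.23 to 0.02. The sample titles give only numbers, and these correlations do not show that equal numbers pair mice. A gene of the receptor list and a gene near Retsat are not reported here by name. The scripts were tested on simulated data.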

Additional observations from a re-analysis of the deposited data

Results flagged for a closer look

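In each of the 8 genes, the 6 GF and the 6 CV libraries were searched for a highest or lowest library that stood far from its nearest neighbour relative to the whole range (Dixon's ratio, critical value 0.625 for 6 libraries). Of 16 such groups 3 were marked. Chance marks about 1 in 20 when the 6 libraries come from a single normal group. Here the sexes were pooled and the genes share libraries, so nothing is read from the count. GF female 1 had 235 normalized reads of Dhrs3, below the other GF libraries (ratio 0.728). CV female 1 had 31204 normalized reads of Rbp4, below the other CV libraries (ratio 0.642). The same mouse had 156 normalized reads of Cyp26a1, above the other CV libraries (ratio 0.799).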

How the results depend on the processing

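The 8 genes were recomputed under 27 alternatives. Retsat, Dhrs4, Rbp4, Rdh11 and Cyp26a1 kept a fitted CV minus GF above 0 in both sexes in all that gave a value. Cyp26a1 has no value with a minimum mean of 50, and its libraries overlapped between the conditions. Its female difference was 0.53 without CV female 1. CV minus GF turned below 0 as follows, and the cause was not tested. With the mitochondrial ribosomal RNA covariate it was -0.50 for Dhrs3 in females, -0.00767 for Rdh16 in males, and -0.11 and -0.47 for Aldh1a1 in males and females. With scaling to hepatocyte markers it was -0.00898 for Dhrs3 in females, -0.13 and -0.29 for Rdh16, and -0.27 for Aldh1a1 in females. With scaling to reads outside the abundant loci it was -0.0238 for Rdh16 in males. Of the other named genes, Aldh8a1 (-0.58), Bco2 (-0.78), Cyp26b1 (0.46) and Nrip1 (0.50) changed sign with the covariate, Aox1 with all reads (0.0546) and after removal of the length and GC trend (0.00827), and Cd36 with hepatocyte markers (-0.0472).

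The median of the 8 genes in females was 2.21 with all reads, 0.82 outside the abundant loci, 1.80 in edgeR without a filter, 1.18 with the covariate, 0.41 with hepatocyte markers and 0.98 with the trend removed, and in males 0.54 with hepatocyte markers. Leaving out 1 library at a time gave 1.16 (without GF female 3) to 1.68 (without GF female 2) in females and 0.77 to 1.23 in males.

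Of the other retinoid genes, 0 passed with the covariate, averaged, in males and in females. Leaving out 1 library gave 35 to 39 calls averaged, 11 (without GF male 1) to 21 in males, 29 to 36 in females, and 0 to 1 for the interaction (1 without CV male 1), where edgeR without a filter gave 2.

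The sex difference within GF or CV livers shares the group means that chose the 8 genes, so its counts of calls are listed and nothing is read from them. In GF livers 0 of the 8 genes passed in limma, where 192 of all 11782 genes did. With all reads 4 passed (Retsat, Aldh1a1, Rbp4 and Dhrs4), where 1393 of all genes did. DESeq2 called 3 (425 of all genes) and edgeR without a filter 2 (564 of 22953). The replicate number as a block gave 3 (830 of all genes), namely Retsat, Aldh1a1 and Rbp4. Leaving out 1 library gave 0 to 3 in GF livers, with 3 without GF female 2, 2 without CV male 1 and 1 without CV male 3. Of all genes 716, 304 and 270 passed in these fits. Leaving out 1 library gave 0 to 0 in CV livers, and 0 to 1 over both conditions, where hepatocyte markers gave 0. The block was fitted within GF and within CV livers alike, so its 3 GF calls rest on numbers that were not shown to pair mice. It left 0 calls in CV livers and changed no other call of the 8 genes. With 3 mice per group, genes as low as Cyp26a1 had an SE of 0.60 on the log2 scale.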
